A study of Mus musculus with 6 samples.

Results

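The nuclear tRNAs that contribute little to the tRNA pool were examined in the superior duodenum of male mice, the first part of the small intestine. All tRNAs of the count table were ranked by their mean share of tRNA counts over the 3 wild-type males, and those from rank 41 on were selected on this measured value as the members, 142 of 182 tRNAs and 78% of the tRNA rows of a table of 1630 short RNAs. The ranking uses measured values of the wild-type mice, so a low level in these mice defines the members and is not a result. Ties among the lowest ranks were broken by the order of the table.

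Short RNA was measured in 3 Polr3b-/+ males (labelled C57BL/6N-Polr3b<em7(IMPC)Tcp>/Tcp) and 3 wild-type males (C57Bl/6N). The mutants carried 1 copy of a frameshift allele of the gene for the second largest subunit of Pol III in all cells of the body, and no transgene or Cre was involved. All mice were fasted overnight, and the dissected duodenum was flushed before freezing, so that the RNA comes from all cell types of this tissue together. The age of the mice is not given in the sources used here. In such bulk RNA, fewer cells of a type and less RNA per cell cannot be told apart.

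tRNAs bring amino acids to the ribosome and read the codons of mRNA through their anticodons. Pol III transcribes them from promoter elements that lie inside each tRNA gene, and many mammalian tRNA genes are weakly used or silent in a given tissue. The tRNA genes form families of near-identical copies, so the reads of a single tRNA are often divided between copies by estimation, and the count of any member below is uncertain to that extent. The tables used here pair the identifiers of the mouse tRNAs with neither names nor anticodons nor sequences. Members are therefore called by their rank, and the amino acid that each one carries is not given.

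The table held 2114055 to 6037849 counts per mouse, of which 563405 to 2228495 fell on nuclear tRNAs. The precursors of intestinal epithelial microRNAs were present at low levels, 3.31 to 18.4 CPM (counts per 1000000 counts of the library) in sum over 9 genes. Those of smooth muscle (0.7 to 4.61 over 2 genes), blood (0 to 3.73 over 3) and pancreas or endocrine cells (0 to 2.5 over 2) were also found. Only the genes of these lists that the count table holds are counted here. Other listed genes of smooth muscle, blood and pancreas were not matched by name. Each gene counted had a count in at least 1 mouse, as did every row of the table. The epithelial sum was 5 to 11 in Polr3b-/+ mice and 3.31 to 18.4 in wild-type mice, and its part in the differences below was not tested. The columns of the mutants carry the short name of a fly Pol III subunit followed by 1, 2 or 3. No group other than the heterozygous males remains for these columns in the labels, so they were read as such, and the animal behind each column is not known. The frameshifted mRNA is too long for the table, so the genotype could not be checked.

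Heterozygous 1 and wild type 1 shared a few transcripts that the other 4 libraries lacked, across the genotypes. They alone held 9 transcripts, with at least 20 counts in both and at most 1 in each of the others, and no other pair of the 6 libraries held such a transcript. Of these 9 transcripts, 2 were members, at ranks 46 and 110. Levels are given below as tRNA CPM, the counts of a tRNA per 1000000 nuclear tRNA counts of the same mouse. Rank 46 had 7420 tRNA CPM in heterozygous 1, 14800 in wild type 1 and 0 in the other 4 mice. Rank 110 had 442 and 618 in the same mice and likewise 0 in the others. Neither passed the count filter of the test described below. Results that may rest on these libraries are given with and without them.

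All 142 members were detected in at least 1 mouse, but so were all 1630 rows of the count table. The table thus holds no tRNA without a count in all 6 mice, and this detection is not a result about the members. Of the 142 members, 99 (69.7%) were detected in all 6 mice, so that most of the members had counts in every mouse. The members span several orders of magnitude. The mean level in wild-type mice ran from 5490 tRNA CPM at rank 41 to 0 at the last 6 ranks, and in Polr3b-/+ mice, which the ranking did not use, from 7070 at the most to 0.45 or 0 at the end of the list. A total of 71 members had at least 1000 counts over the 6 mice, 83 had at least 10 counts in every mouse, and 23 had fewer than 10 counts in all mice together.

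**Figure D1:**
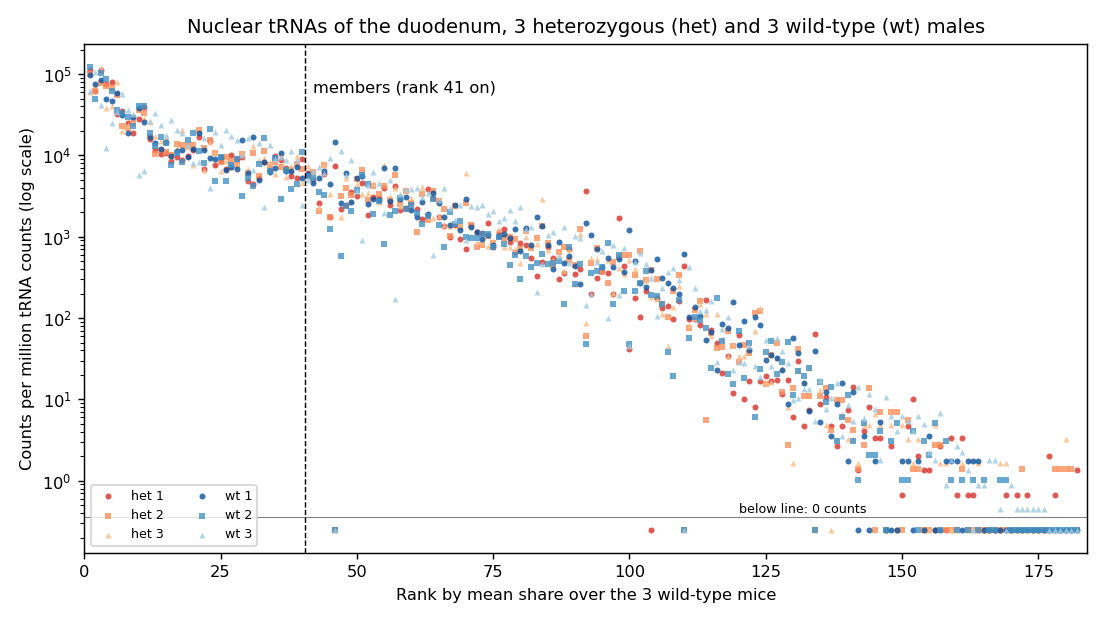
Level of each of the 182 nuclear tRNAs in each mouse (vertical axis, tRNA CPM, log scale) against its rank by mean share in wild-type mice (horizontal axis), with counts of 0 placed under the grey line and the 142 members to the right of the dashed line. Levels fall without a gap at rank 41, and zeros become common past rank 141, with isolated zeros at ranks 46, 104, 110, 134 and 137.

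The mutants ranked the tRNAs much as the wild-type mice did. Ranked on the Polr3b-/+ mice alone, 141 of the 142 members (99.3%) again fell past rank 40. The exception was rank 44, which stood at rank 36 in the mutants, and the tRNA at rank 30 moved to rank 42 in its place. Within single mice, 137 to 140 of the members fell past rank 40. The limit itself marks no step in abundance. Just outside it, the tRNAs at ranks 36 to 40 had wild-type means of 7740, 7300, 7210, 6780 and 6270 tRNA CPM, and just inside it, ranks 41 to 45 had 5490, 5450, 5340, 5200 and 4970. In the Polr3b-/+ mice, the means of the same tRNAs were 8790, 6330, 6590, 7590 and 6820 outside the limit and 6310, 5370, 2340, 7070 and 2280 inside it. Ranks 43 and 45 were thus well below their neighbours in the mutants, and the others were not.

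Together, the members held a small part of the tRNA pool. Their summed share was 11.4%, 12.6% and 12.7% of tRNA counts in heterozygous 1, 2 and 3, and 15%, 9.01% and 16.2% in wild type 1, 2 and 3. The mutant values lay inside the wild-type range of a ranking that used these same wild-type mice. The mean was 12.2 ± 0.722% in Polr3b-/+ and 13.4 ± 3.85% in wild-type mice (SD, n = 3 each), a difference of -1.16 percentage points that is smaller than the wild-type SD (exact two-sided permutation test, p = 0.8, adjusted p = 0.8 over the 3 such tests made; the smallest p that 3 mice against 3 allow is 0.1). The difference depended on single wild-type mice. Over the fits without 1 mouse, it ran from 0.237 without wild type 3 to -3.35 without wild type 2. The latter had p = 0.1 (exact two-sided permutation test), the smallest p possible with the mice left. Without both heterozygous 1 and wild type 1, the difference was 0.0575. The 95% Wilson intervals were narrow, from 11.36% to 11.46% in heterozygous 1 and from 14.91% to 15.09% in wild type 1, and cover counting error only. The spread between mice of a genotype was thus far larger than counting error.

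Because the members were ranked on these wild-type mice, the share was also read in each wild-type mouse after ranking on the remaining wild-type mice. It was then 16.4% in wild type 1, 13.7% in wild type 2 and 18.5% in wild type 3. With the same rankings, the 3 mutants had 11.6% to 13.8%, 13.5% to 15.5% and 11.1% to 13.4%. Wild type 1 and 3 were thus above all 3 mutants of the same ranking, and wild type 2 was inside the mutants' range. Ranking on all 6 mice left the difference between genotypes at -1.16 percentage points, and ranking on the mutants alone gave -1.68.

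Most of the share was held by the first members. Ranks 41 to 60 held 7.02%, 7.73% and 7.77% of tRNA counts in the Polr3b-/+ mice and 9.69%, 5.49% and 9.79% in the wild-type mice, more than the rest of the members together. Ranks 61 to 80 held 2.42% to 4.58% over the 6 mice, and ranks 81 to 100 held 0.823% to 1.58%. The 20 tRNAs from rank 101 to 120 held 0.232% to 0.461%. The 30 from rank 121 to 150 held 0.0323% to 0.0676%, and the last 32 held 0.00177% to 0.00498%. In each of these groups, the ranges of the genotypes overlapped. Seen over the whole pool, 80 to 90 tRNAs sufficed for 99% of tRNA counts (82, 87 and 84 in heterozygous 1, 2 and 3, and 90, 80 and 86 in wild type 1, 2 and 3), and the remaining tRNAs shared the last 1%.

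**Figure D2:**
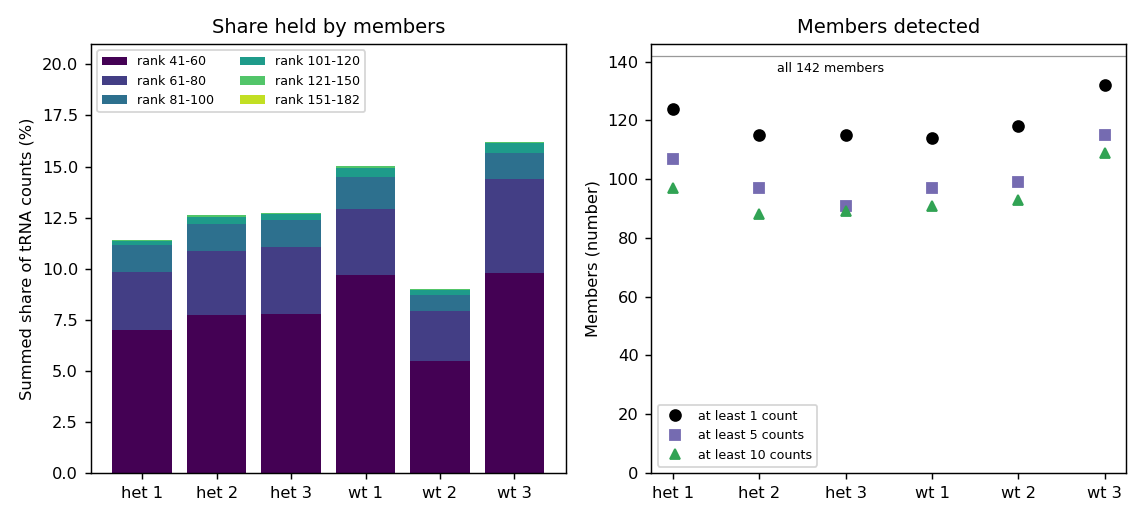
Left, the summed share of tRNA counts (vertical axis, percent) that the 142 members hold in each heterozygous (het) and wild-type (wt) mouse, stacked by group of ranks; right, the number of members with at least 1, 5 or 10 counts in each mouse. The bars of the 3 mutants, from 11.4% to 12.7%, lie between wt 2 at 9.01% and wt 3 at 16.2%, and wt 3 has the most members detected at each minimum.

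The number of members detected differed by less than the spread between mice. At least 1 count was found for 124, 115 and 115 members in heterozygous 1, 2 and 3 and for 114, 118 and 132 in wild type 1, 2 and 3. The means were 118 ± 5.2 and 121 ± 9.45 (SD, n = 3 each), a difference of -3.33 members (exact two-sided permutation test, p = 0.7, adjusted p = 0.8). Detection moved with depth: the most members were found in wild type 3, with 2228495 tRNA counts, and the fewest in wild type 1, with 563405. At the depth of wild type 1, the expected number detected would be 116, 112.8 and 114.2 in the mutants and 114, 113.2 and 121.4 in the wild-type mice, a difference of -1.86 members (exact two-sided permutation test, p = 0.7, adjusted p = 0.8). Wild type 3 remained the highest, and without it the difference in members detected was 2. Without heterozygous 1 and wild type 1 it was -10. How low a silent tRNA can be shown to be also depends on depth. A count of 0 allows a level of up to 3 counts, which is 1.35 tRNA CPM in wild type 3 and 5.32 in wild type 1, and covers counting error only.

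Presence in every mouse was as frequent in both genotypes. Members with a count in every mouse of a genotype numbered 106 in Polr3b-/+ and 106 in wild-type mice. Of these, 7 were in every mutant but not in every wild-type mouse, and 7 the other way round. By the rule, the 6 members at ranks 177 to 182 had no count in a wild-type mouse, and their largest count in a mutant was 3, at rank 177 in heterozygous 1. Rank 180 was found in 2 mutants, with 1 and 2 counts, rank 178 in 2 mutants with 1 count each, and the others in 1 mutant. Conversely, 8 members had no count in a mutant. All but 1 of these 8 were found in wild type 3 alone. Rank 147 had 24 counts there, 10.8 tRNA CPM, which is above the limit of 4.89 or less that a 0 allows in each mutant. The others of the 8 had 1 to 4 counts in a mouse. Single-mouse counts were therefore mostly at a level where their absence elsewhere was not detectable at this depth: of the 11 members with counts in 1 mouse only, 5 had a single count, and 7 were in wild type 3, 2 in heterozygous 1 and 2 in heterozygous 2.

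A few members were at 0 in a mouse although they were plentiful in others. Besides ranks 46 and 110, rank 104 had no count in heterozygous 1 (limit 2.02 tRNA CPM) and 392, 183, 392, 193 and 311 tRNA CPM in heterozygous 2 and 3 and wild type 1, 2 and 3. Rank 134 had 63.4 in heterozygous 1, 39 in wild type 1, 5.38 in wild type 3 and 0 in the other 3 mice. Of the 101 members with at least 20 counts in a mouse, 5 were more than 2-fold higher in both heterozygous 1 and wild type 1 than in any other mouse. Ranks 46 and 110, which had already set this pair apart, are among these 5. No other pair of the 6 libraries had more than 1 such member. Without the 2-fold limit, this pair did not stand out. Both its mice were above the other 4 for 5 of the 101 members. The same held for 16 with heterozygous 2 and wild type 3, and for 14 with heterozygous 2 and wild type 1.

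Levels of the same member varied more between wild-type mice than between mutants. Over the 83 members with at least 10 counts in every mouse, the median coefficient of variation was 29.4% in Polr3b-/+ and 50.1% in wild-type mice (n = 3 each). The median ratio of the highest to the lowest mouse was 1.78 and 2.6. The ratio was under 2 for 52 members in the mutants and 25 in the wild-type mice, and over 5 for 6 and 23. Wild type 3 was the highest of the 6 mice for 43 of these 83 members, wild type 2 the lowest for 31 and heterozygous 1 the lowest for 23. These 2 wild-type mice also differed in the whole pool, since 12 tRNAs made up 50% of tRNA counts in wild type 3 and 7 in wild type 2. The tRNAs of rank 1 to 40 had median coefficients of variation of 18.6% and 42.5%, with the wild-type mice again the more variable. The genotypes' spreads were compared as a description, with 3 mice each and no test. Pairs of mice of a genotype differed over these 83 members by far more than counting noise (chi-square over degrees of freedom from 71.6 to 710), and each of the 6 mice counted as 1 replicate.

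By the ratio of the highest to the lowest mutant, the 5 most variable members were ranks 92, 100, 70, 124 and 102. Rank 92 had 3640, 59.8 and 88 tRNA CPM in heterozygous 1, 2 and 3 and 1480, 48.2 and 143 in wild type 1, 2 and 3, so that heterozygous 1 and wild type 1 were both high. Rank 100 had 41.2, 602 and 515 in the mutants and 1210, 48.2 and 44.9 in the wild-type mice. Here heterozygous 2, heterozygous 3 and wild type 1 were high and the other 3 were low. The same 3 mice were the highest for rank 70, with 701, 2600 and 6150 in the mutants and 2890, 981 and 915 in the wild-type mice, and for rank 124, with 16.9, 122 and 134 and 81.6, 23.6 and 18.8. Rank 102 did not follow this division, with 103, 659 and 282 in the mutants and 272, 273 and 625 in the wild-type mice. In each of these 5 members, the ranges of the genotypes overlapped. The ratio of the highest to the lowest wild-type mouse was 30.6, 26.9, 3.16, 4.33 and 2.3 for ranks 92, 100, 70, 124 and 102, and so was below the median of 2.6 for rank 102.

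Whether the loss of a copy of Polr3b changed single members was tested with edgeR's quasi-likelihood test over all 560 short RNAs with enough counts. Of the 142 members, 94 passed its count filter and the 48 others did not. No member passed 10% FDR in either direction, and over all tested transcripts the share called was 0%. The smallest adjusted p of a member was 0.999. With every transcript of at least 1 count in the edgeR fit, the same 10% FDR was met by 0 of all 142 members, 2 of which had p under 0.05 before adjustment. With DESeq2, 0 of 139 members passed (0.186% of all transcripts were called), and 3 had an unadjusted p under 0.05. An unadjusted p under 0.05 was found for 4 of the 94 members (4.26%) against 20 of all 560 tested transcripts (3.57%). Of these 20, 11 were mitochondrial tRNAs, of which 22 were tested, and 4 were the members themselves. This background thus consisted largely of mitochondrial tRNAs and the members. All 4 members were lower in the mutants and 0 higher. Of all tested transcripts, 3.04% were lower and 0.536% higher at this p, and the 11 mitochondrial tRNAs were all lower. The wild-type levels that chose the members also enter this comparison. Near the rank limit, this choice leans differences toward higher in the mutants, not lower.

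The log2 fold changes of the 94 members ran from -1.75 to 1.06 with a median of -0.38. They were negative for 72 and positive for 22, that is, 76.6% were lower, against 55.4% of all tested transcripts, whose median was -0.05. For the 40 most abundant tRNAs, the median was -0.24, with 27 lower and 13 higher. Without wild type 3, 47 members were lower and 48 higher, with a median of 0.06, against 0.00 for all tested transcripts. Without heterozygous 2, 86 were lower and 14 higher (median -0.69), and without wild type 2, 78 and 18 (-0.61). In the other fits without 1 mouse, 64.7% to 69.1% of the members were lower. With TMM factors computed over the tRNA rows alone, 56 were lower and 38 higher (59.6% lower) with a median of -0.11, while the median of all tested transcripts moved from -0.05 to 0.19, so that the counts of lower and higher members depended on the scaling and the members stayed below all transcripts. With shares of tRNA counts in place of TMM, 67 were lower and 27 higher. By groups of ranks, the median was -0.15 for ranks 41 to 60, -0.41 for 61 to 80, -0.28 for 81 to 100, -0.53 for 101 to 120 and -0.47 for the 16 tested of 121 to 150. None of the last 32 passed the count filter.

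**Figure D3:**
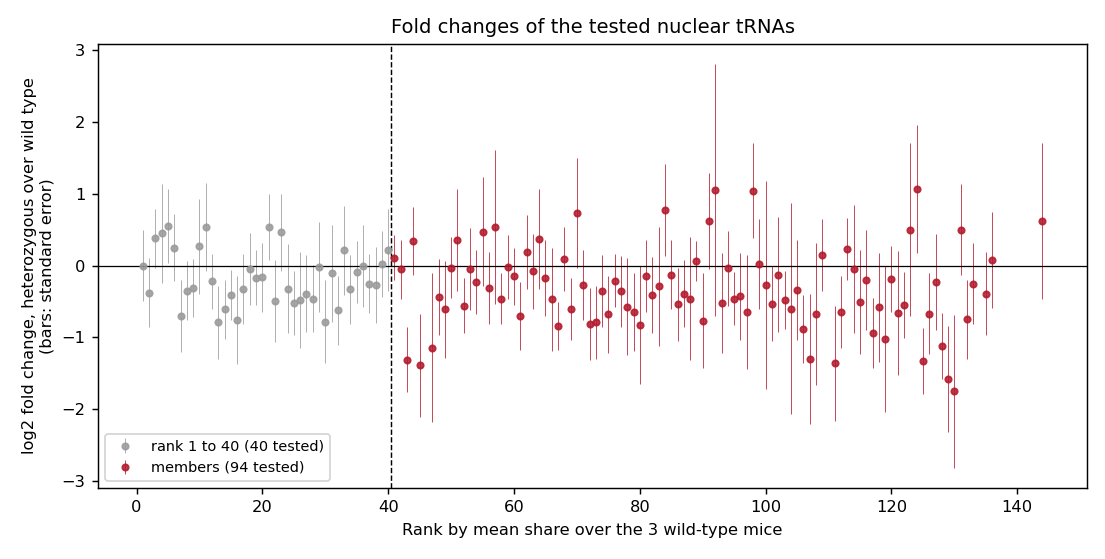
log2 fold change of Polr3b-/+ over wild-type mice with its standard error (vertical axis, edgeR after TMM scaling) for the 94 tested members (red) and the 40 most abundant tRNAs (grey), against rank (horizontal axis). Values scatter on both sides of 0 from -1.75 to 1.06 among the members, with 72 below 0. Leaving out 1 mouse gave from 47 of 95 tested members below 0 (without wild type 3) to 86 of 100 (without heterozygous 2).

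Among members that were lower in the mutants, the smallest p belonged to rank 43, URS0000390F3A_10090. It had 2600, 2100 and 2310 tRNA CPM in heterozygous 1, 2 and 3 and 5310, 3530 and 7190 in wild type 1, 2 and 3. Every mutant lay below every wild-type mouse, with means of 2340 ± 250 and 5340 ± 1830 (SD, n = 3 each). On the log2 scale, the fold change was -1.31 ± 0.45 (SE; edgeR, adjusted p = 0.999). It ran from -1.61 to -0.93 over the fits that left out 1 mouse. Since the groups do not overlap, leaving out a mouse could hardly turn its sign, so this range is no further support. Rank 125, URS00006D039B_10090, followed with 10 to 29 counts in the mutants. Its levels were 19.6, 15.3 and 16.3 tRNA CPM in the mutants and 30.2, 38 and 53 in the wild-type mice, again without overlap. The log2 fold change was -1.33 ± 0.46 (SE; edgeR, adjusted p = 0.999). The other members with an unadjusted p under 0.05 were rank 67 (log2 fold change -0.84 ± 0.33, SE) and rank 128 (-1.12 ± 0.46), and the ranges of the genotypes did not overlap for rank 67 and did for rank 128.

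Among members that were higher, the smallest p belonged to rank 98, URS000061D582_10090. It had 1690, 562 and 408 tRNA CPM in the mutants and 593 and 194 in wild type 2 and 3, with wild type 1 between these. Heterozygous 1 alone stood above the wild-type range. The log2 fold change was 1.04 ± 0.66 (SE; edgeR, adjusted p = 0.999), and 0.21 without heterozygous 1. Rank 84, URS000009BE9A_10090, had 495, 1350 and 2950 in the mutants and 1340, 618 and 469 in the wild-type mice, and here too heterozygous 2, heterozygous 3 and wild type 1 were the highest mice. Its log2 fold change was 0.77 ± 0.64 (SE; edgeR, adjusted p = 0.999). It was 0.35 without heterozygous 3 and 1.42 without wild type 1.

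**Figure D4:**
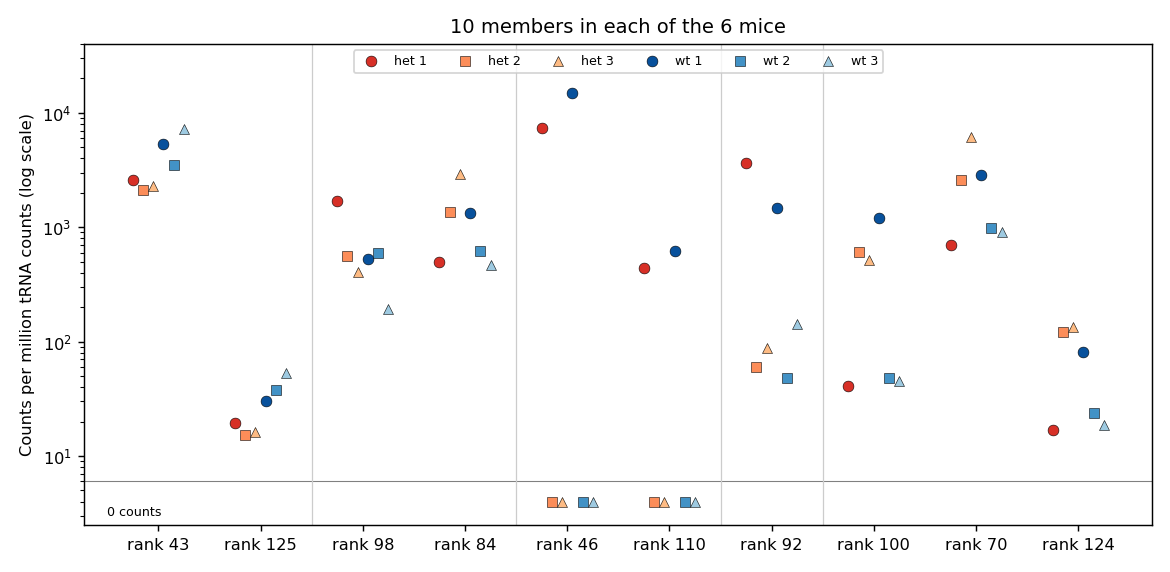
Level of 10 members in each of the 6 mice (vertical axis, tRNA CPM, log scale; counts of 0 under the grey line; het, heterozygous; wt, wild type). Ranks 43 and 125 are lower in each mutant than in each wild-type mouse, ranks 46 and 110 are at 0 outside het 1 and wt 1, and ranks 84, 70, 100 and 124 are highest in het 2, het 3 and wt 1.

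Compared as shares of tRNA counts, 6 of the 142 members (4.23%) had all 3 mutants below all 3 wild-type mice and 0 had them above. Over all 182 tRNAs these shares were 3.85% (7 tRNAs) and 0%, but 6 of the 7 were the members themselves. The 2 shares are therefore close by construction. A full separation of 3 mice against 3, in either direction, has an exact permutation p of 0.1, and 4.23% is not above this rate. Among the tRNAs of rank 1 to 40, 1 of 40 was lower in this way and 0 higher. The 6 members were ranks 43, 58, 67, 106, 125 and 155. Rank 58 had 2140, 2500 and 2360 tRNA CPM in the mutants and 2900, 3020 and 3380 in the wild-type mice. Rank 106 had 132, 147 and 113 and 307, 151 and 234, so that heterozygous 2 and wild type 2 nearly met. Rank 155 had 0 to 5 counts per mouse.

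Leaving out heterozygous 1 and wild type 1, a choice made after their shared transcripts were seen, changed the calls. Of 96 members then tested, 2 passed 10% FDR with edgeR, both higher in the mutants, where 0.888% of the 563 tested transcripts were called higher and 1.6% in either direction. Rank 100 had a log2 fold change of 3.57 ± 0.56 and rank 124 of 2.54 ± 0.51 (SE; edgeR, adjusted p = 0.0334 and 0.0815). With all 6 mice, their log2 fold changes were -0.27 and 1.06, each with an adjusted p of 0.999. In both members, the mice left out were a low mutant and a high wild-type mouse, as the values above show, so that these calls rest on 2 mice against 2 chosen after the data were seen. In the same fit, 9 members had an unadjusted p under 0.05, with 8.88% of all tested transcripts.

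Other short RNAs were measured in the same libraries. Mitochondrial tRNAs, which Pol III does not make, were all 22 lower in the mutants by their fitted values, with a median log2 fold change of -1.07, 0 past 10% FDR and 11 with an unadjusted p under 0.05. Their summed level was 120000, 85400 and 71100 CPM in heterozygous 1, 2 and 3 and 95500, 288000 and 195000 in wild type 1, 2 and 3. Wild type 1 thus lay inside the mutants' range. The median of the members, -0.38, lay between the mitochondrial median and the median of all tested transcripts. The 5S rRNA is an RNA of the large ribosomal subunit and is made by Pol III. Of 18 5S rRNA transcripts identified by name, 10 were tested, with a median of -0.41 and 0 past 10% FDR. The summed 5S level was 96.1, 235 and 198 CPM in heterozygous 1, 2 and 3 and 435, 131 and 104 in wild type 1, 2 and 3. Wild type 1 was thus the highest mouse, and heterozygous 2 and 3 were above wild type 2 and 3. The RNA of RNase MRP, which processes rRNA, had a log2 fold change of -0.26, and the 2 Y RNAs had -0.01 and 0.46, with 0 past 10% FDR. Both RNase P transcripts fell to the count filter. Transcripts of 7SK, Vault RNA and U6 were not analysed here, since none matched by name and 312 rows other than tRNAs had no name.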

How the data were processed

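Short RNA of the superior duodenum was sequenced from 3 Polr3b-/+ and 3 wild-type males. RNA of less than 200 nucleotides was selected and demethylated. The authors trimmed reads with Cutadapt, quantified them with Salmon on an index of all GRCm39 RNAs, and deposited Salmon's estimated counts of transcripts under 300 bases as whole numbers, one column per mouse, without normalization. Rows with RNAcentral identifiers (182) were taken as nuclear tRNAs; 1136 of the other 1448 were named through GENCODE M21 (GRCm38) by identifier.

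Levels (tRNA CPM) are counts per 1000000 nuclear tRNA counts of a mouse. The members, lists and tests were chosen with earlier results of these data known. Counts were tested with edgeR 4.0.16 (R 4.3.3): filterByExpr (minimum count 10), TMM, glmQLFit and glmQLFTest without covariates, Benjamini-Hochberg over the 560 tested transcripts, 10% FDR. Standard errors are the fold change over the square root of F. The code was first tested on simulated data. DESeq2 1.42.0, other scalings, filters, rank limits, rankings and leaving out each mouse were alternatives. Single values per mouse were compared with exact two-sided permutation tests. Since nothing states that the mice came from separate litters, p-values measure the spread between these mice. Identifiers were printed for the 2 members with the smallest p in each direction. By rank, values were given for the 5 tRNAs on each side of the limit, the 5 members most variable between mutants, those in 1 mouse only and those at 0 in wild type; other members named were chosen after their values were seen. Depth was 2114055 to 6037849 counts per mouse, and intervals and limits cover counting error only. The reads and the females were not analysed here.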

Additional observations from a re-analysis of the deposited data

How the results depend on the processing

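No member passed 10% FDR with edgeR in any alternative that kept at least 5 mice, nor at a threshold of 5% or with DESeq2; the count ran from 0 to 0 over the fits without 1 mouse and was 2 without heterozygous 1 and wild type 1, an alternative chosen after seeing the data. The number of members with an unadjusted p under 0.05, 4 in the fit reported, was 0 with library totals, with TMM over the tRNA rows and with a replicate block on the number in the column names, 1 with the sum of tRNA rows as library size, 2 with upper quartile scaling and with every transcript of at least 1 count, from 0 (without heterozygous 3) to 7 (without wild type 1) over the fits without 1 mouse, and 9 without heterozygous 1 and wild type 1; the cause was not tested. The median log2 fold change ran from -0.69 (without heterozygous 2) to 0.06 (without wild type 3). The difference in summed share ran from -3.35 to 0.237 percentage points over the fits without 1 mouse, positive without wild type 3 only, and was 0.0575 without heterozygous 1 and wild type 1. The other choices of members and denominators kept its sign, from -1.68 to -0.142, the last with members from rank 51 on. The difference in members detected ran from -7 to 2 over the same fits, positive without wild type 3 only, and was -10 without heterozygous 1 and wild type 1. The 4 members given by identifier kept their direction in all 16 alternatives each. They were picked for the smallest p in each direction of these same data, and ranks 43 and 125 had no overlap between genotypes. Their kept direction was thus largely fixed in advance and is not support. The labels give the heterozygous mice no replicate numbers, and the block, added after seeing the data, rests on column names. Mice of equal number did not deviate together over the 560 tested transcripts (correlations of 0.02, -0.08 and 0.11). These transcripts leave out ranks 46 and 110, which heterozygous 1 and wild type 1 alone held, so the correlations cannot decide whether mice of equal number were processed together. With the replicate block, 0 members passed 10% FDR and the median was -0.21. Depth limits the last ranks: 48 members did not pass the count filter.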

Other observations

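The 7 transcripts other than tRNAs that heterozygous 1 and wild type 1 alone held were found at 0 or 1 count in the other 4 mice. Rnu11, the U11 RNA of the minor spliceosome, had 513 and 433 counts in these 2 mice. Snora44 had 346 and 135 and Snora61 433 and 101, both snoRNAs of the type that guides pseudouridylation. The snRNA gene Gm22710 had 984 and 282, and the snoRNA genes Gm26447 and Gm22354 had 118 and 94 and 181 and 92. With the 2 tRNAs at ranks 46 and 110, the 9 transcripts made up 0.342% of all counts in heterozygous 1 and 0.466% in wild type 1. Why these libraries hold them was not tested.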
